A study of Mus musculus with 8 samples.

Results

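Troponin is the calcium switch of striated muscle, and its 3 subunits, I, T and C, are each encoded by genes used in slow skeletal, fast skeletal or cardiac fibres. The 8 genes described here are the rows of the deposited expression table whose gene name is Tnni1, Tnnt1 or Tnnc1 (slow forms), Tnni2, Tnnt3 or Tnnc2 (fast forms) and Tnni3 or Tnnt2 (cardiac forms), 8 of 54091 genes in all. The rule that picks them uses names and no values, though it was written with earlier results of these data known. RNA sequencing was done on white quadriceps from 8 male mice aged 11 to 14 weeks, kept on a Purina chow diet and sampled in the morning. 4 mice carried CKM Cre and are labelled as an Acot2 knockout in muscle (here Cre). CKM is the muscle creatine kinase gene, whose promoter is used to drive Cre recombinase in striated muscle, heart included. The other 4 mice are labelled Loxp/Loxp with no mention of Cre (here Loxp), so the presence of the recombinase and the loss of Acot2 cannot be told apart between the groups. Acot2 encodes a mitochondrial acyl-CoA thioesterase. Each library is named by its group and its replicate number within that group.

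In resting muscle, troponin I holds tropomyosin where it blocks myosin from actin, troponin T ties the complex to tropomyosin, and troponin C binds calcium and releases the block. Slow and fast fibres use different genes for each subunit. Slow fibres share troponin C with the heart, since Tnnc1 encodes both the slow skeletal and the cardiac form, whereas cardiac troponin I (Tnni3) and cardiac troponin T (Tnnt2) belong to the heart, with Tnnt2 also used in immature skeletal muscle. White quadriceps of the mouse is built mostly from fast glycolytic fibres, which carry the myosin heavy chain Myh4.

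The stretches just upstream of the start sites of the slow genes, which moved together between libraries, are shown with that of the fast troponin C gene, which hardly moved. All are from RefSeq on GRCm38.p6, run 5′ to 3′ on the gene's own strand and end 1 base before the listed start site. Capitals mark the motifs searched on both strands, which were the E-box CANNTG (read by MyoD-family factors), CTA and TAG separated by any 4 bases (MEF2 type), CATTCC (MCAT, read by TEAD factors) and TATAAA.
Tnni1, chr1:135799171-135799420, plus strand: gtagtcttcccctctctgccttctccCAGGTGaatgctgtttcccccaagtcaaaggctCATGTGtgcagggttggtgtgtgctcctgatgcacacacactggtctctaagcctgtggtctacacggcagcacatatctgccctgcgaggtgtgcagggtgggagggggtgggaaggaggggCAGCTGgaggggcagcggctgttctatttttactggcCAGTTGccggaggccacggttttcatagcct
Tnnt1, chr7:4515976-4516225, minus strand: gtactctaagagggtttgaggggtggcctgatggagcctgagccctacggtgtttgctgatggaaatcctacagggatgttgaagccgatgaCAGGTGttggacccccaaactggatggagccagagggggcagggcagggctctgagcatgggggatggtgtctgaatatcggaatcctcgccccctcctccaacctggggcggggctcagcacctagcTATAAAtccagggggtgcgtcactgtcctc
Tnnc1, chr14:31208062-31208311, plus strand: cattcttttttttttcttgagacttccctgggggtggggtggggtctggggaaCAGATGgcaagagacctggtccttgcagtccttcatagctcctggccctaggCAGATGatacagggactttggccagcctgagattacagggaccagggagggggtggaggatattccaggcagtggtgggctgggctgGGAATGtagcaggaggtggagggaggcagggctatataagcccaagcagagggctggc
Tnnc2, chr2:164779735-164779984, minus strand: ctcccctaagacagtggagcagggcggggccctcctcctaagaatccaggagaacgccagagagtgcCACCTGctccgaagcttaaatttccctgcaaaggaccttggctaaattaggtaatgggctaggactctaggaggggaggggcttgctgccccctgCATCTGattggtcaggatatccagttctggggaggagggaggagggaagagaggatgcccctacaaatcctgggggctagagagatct

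The E-box count was 4 in the Tnni1 stretch, 1 in Tnnt1, 2 in Tnnc1 and 2 in Tnnc2. An E-box lay in 66.2% of all 32851 RefSeq promoter stretches of the same 250 bases. The MCAT letters were found in Tnnc1, on the reverse strand as GGAATG, and lay in 12.6% of all stretches. TATAAA was found in Tnnt1 from base -30 to base -25, and lay in 12.4% of all stretches. The MEF2-type letters, in 3.2% of all stretches, were in none of the 4. Of the cardiac genes, the Tnni3 stretch held 1 E-box and the Tnnt2 stretch 4 E-boxes and 1 MCAT match. The table lists 2 windows each for Tnni1 and Tnnt2, of which the first was used. The bases after the Tnnt2 start were found in no GENCODE transcript of the gene. The windows of Tnni1, Tnnt1 and Tnni3 lie inside the gene spans given for them by GENCODE. Most of the Tnnc2 window lies inside its span, and the rest runs past the upstream end. These spans include transcripts that start upstream of the listed start sites. These matches describe the letters in the windows and not binding.

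Values are given as normalized reads, which are read counts divided by a factor for each library, obtained by undoing the log2 scale of the deposited table. The libraries held 30415432 to 48834289 reads. Acot2 averaged 47.3 ± 5.03 normalized reads in Cre muscle and 213 ± 45.9 in Loxp muscle (SD, n = 4 each), with 43.8, 42.8, 53.7 and 48.9 in Cre 1 to 4, against 213, 149, 251 and 240 in Loxp 1 to 4. The groups did not overlap, and the difference was -2.13 on the log2 scale (limma, SE 0.18, adjusted p = 0.000962). Acot2 and Kbtbd12, a Kelch-domain protein gene that was 1.57 higher in Cre on the log2 scale (limma, SE 0.063, adjusted p = 6.00e-07), were the only genes called among the 13638 tested at an adjusted p under 0.05.

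The fast troponins made up almost all troponin RNA and were nearly constant. Together the 8 genes took 2.46% to 2.87% of all reads in a library, and, counted per length of transcript, the fast forms were at least 99.7% of troponin transcripts in every library. In bulk tissue, fewer fibres of a type and less RNA per fibre cannot be told apart.

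Tnni2, fast troponin I, had 230179, 226381, 233813 and 197363 normalized reads in Cre 1 to 4, against 239671, 211455, 207391 and 213680 in Loxp 1 to 4. Cre 4 was the lowest library and Loxp 1 the highest, and the groups overlapped. Tnnt3, fast troponin T, had 578356, 578075, 582661 and 481273 normalized reads in Cre 1 to 4, against 591614, 562579, 500079 and 535489 in Loxp 1 to 4. Again Cre 4 was lowest and Loxp 1 highest, and the other 3 Cre libraries lay within the Loxp range. Tnnc2, fast troponin C, had 204919, 199772, 195566 and 168933 normalized reads in Cre 1 to 4, against 200757, 200896, 169884 and 185620 in Loxp 1 to 4. Cre 4 was the lowest here too, with Loxp 3 next to it, and Cre 1 was the highest.

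The lowest and highest libraries differed 1.21-fold for Tnni2, 1.23-fold for Tnnt3 and 1.21-fold for Tnnc2. The Cre minus Loxp difference was 0.025 for Tnni2 on the log2 scale (limma, 95% confidence interval -0.22 to 0.27). For Tnnt3 it was 0.018 (-0.31 to 0.35) and for Tnnc2 0.022 (-0.22 to 0.27). The limma adjusted p was 1.00 for each. Counted per length, Tnnt3 was 1.79 to 1.97 times Tnni2, and Tnnc2 was 0.878 to 1.02 times Tnni2, over the 8 libraries. The proportions of the fast subunits to each other moved little between libraries of either group.

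The slow troponins were rare and varied widely, and they varied most inside the Cre group. Tnni1, slow troponin I, had 0, 17.1, 170 and 557 normalized reads in Cre 1 to 4, against 2.01, 10.1, 15.3 and 21.6 in Loxp 1 to 4. These rest on 0, 14, 149 and 786 reads in Cre and on 2, 9, 16 and 20 reads in Loxp, and a count of 0 in Cre 1 allows up to 2.53 normalized reads, for counting error only. Cre 3 and Cre 4 stood above every Loxp library, Cre 2 lay within the Loxp range and Cre 1 below it.

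Tnnt1, slow troponin T, had 13.5, 19.6, 420 and 1161 normalized reads in Cre 1 to 4, against 19.1, 13.4, 85.0 and 67.1 in Loxp 1 to 4. Cre 3 and Cre 4 again stood above every Loxp library, and Cre 1 and Cre 2 lay at the low end of the Loxp range. Tnnc1, slow and cardiac troponin C, had 3.37, 26.9, 251 and 652 normalized reads in Cre 1 to 4, against 20.1, 10.1, 30.6 and 39.0 in Loxp 1 to 4. The order of the Cre libraries was the same as for Tnni1 and Tnnt1, with Cre 1 lowest and Cre 4 highest. The lowest and highest libraries differed 86.4-fold for Tnnt1 and 194-fold for Tnnc1, whose lowest value, in Cre 1, rests on 4 reads.

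**Figure D1:**
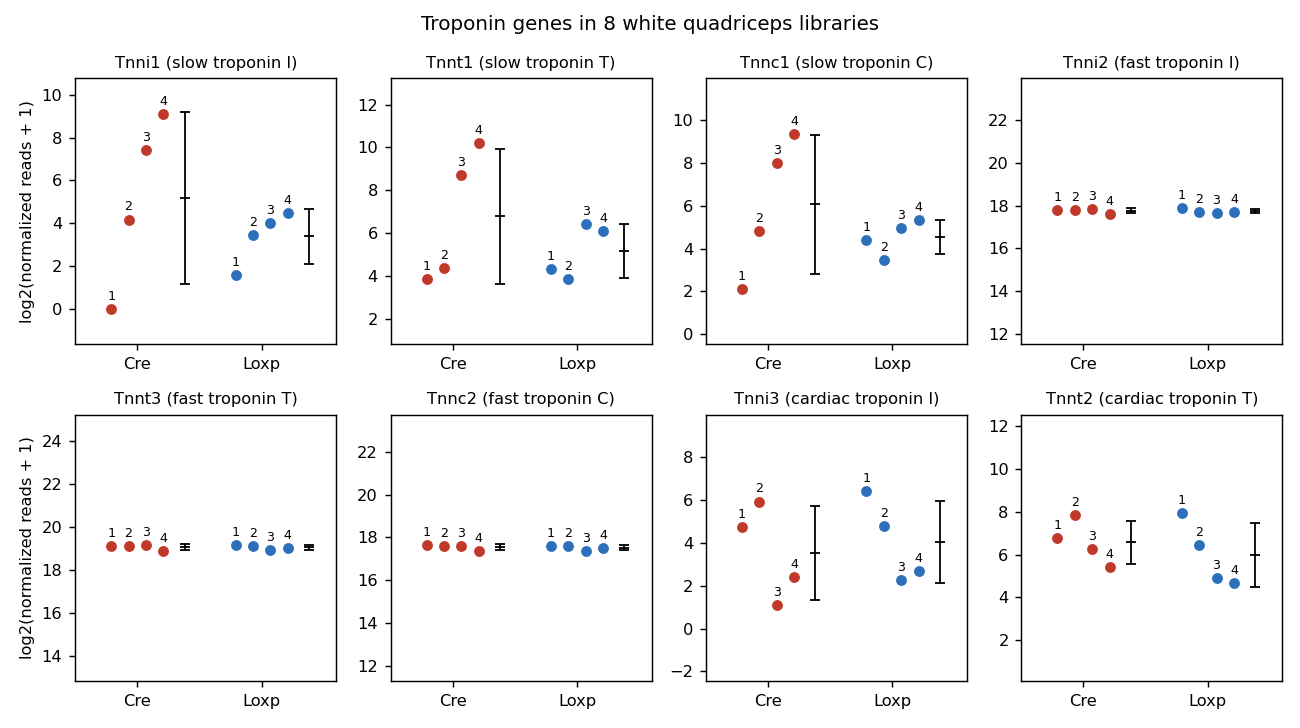
Log2 of normalized reads plus 1 for each troponin gene in each of the 4 Cre (red, left) and 4 Loxp (blue, right) libraries, numbered by replicate, with the mean and SD of each group beside the points; every panel spans the same number of log2 units. The slow genes spread widely in Cre, from 0 to 557 normalized reads for Tnni1, the fast genes form flat rows, and the cardiac genes are spread in both groups.

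The group means of the slow genes were higher in Cre, but no difference exceeded the spread between animals. Tnni1 averaged 186 ± 259 normalized reads in Cre and 12.3 ± 8.31 in Loxp (SD, n = 4 each), Tnnt1 404 ± 540 in Cre and 46.2 ± 35.4 in Loxp, and Tnnc1 233 ± 301 in Cre and 24.9 ± 12.5 in Loxp. In each case the SD in Cre was larger than the mean. On the log2 scale, with a pseudocount of 1, the Cre minus Loxp difference was 1.78 for Tnni1 (limma, SE 1.57, 95% confidence interval -1.66 to 5.23), 1.61 for Tnnt1 (SE 1.26, -1.15 to 4.37) and 1.52 for Tnnc1 (SE 1.24, -1.21 to 4.25). The limma adjusted p was 1.00 for each, and the unadjusted p was 0.279 for Tnni1, 0.227 for Tnnt1 and 0.245 for Tnnc1.

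These differences rested on Cre 3 and Cre 4. With both left out, an alternative chosen after the values were seen, the sign turned, to -1.31 for Tnni1, -1.07 for Tnnt1 and -1.08 for Tnnc1. Cre 3 and Cre 4 were the highest libraries for each gene, so a lower difference was fixed in advance. Loxp 3 and Loxp 4, the highest Loxp libraries for each gene, stayed in. Leaving out Cre 4 alone gave 0.47 for Tnni1, 0.47 for Tnnt1 and 0.43 for Tnnc1, and leaving out Cre 1 gave 3.51, 2.58 and 2.83. By its spread over the 8 libraries (SD of the log2 values), Tnni1 ranked 3, Tnnt1 ranked 10 and Tnnc1 ranked 11 among the 13638 genes tested, whereas Tnni2, Tnnt3 and Tnnc2 ranked 11134, 10127 and 10108.

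The slow to fast ratio of each subunit, which asks how much of a subunit's RNA is of the slow form, is given as slow transcripts per 10000 fast transcripts after division by transcript length. For troponin I (Tnni1 over Tnni2) it was 0, 0.546, 5.26 and 20.4 in Cre 1 to 4, against 0.0606, 0.344, 0.532 and 0.732 in Loxp 1 to 4. For troponin T (Tnnt1 over Tnnt3) it was 0.253, 0.367, 7.82 and 26.2 in Cre 1 to 4, against 0.350, 0.259, 1.84 and 1.36 in Loxp 1 to 4. For troponin C (Tnnc1 over Tnnc2) it was 0.160, 1.31, 12.5 and 37.5 in Cre 1 to 4, against 0.973, 0.487, 1.75 and 2.04 in Loxp 1 to 4. All 3 ratios put Cre 4 first and Cre 3 second, above every Loxp library, and all 3 put Cre 1 below every Loxp library.

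The counting intervals (exact, 95%, reads only) separate these positions for the high libraries but not for all low ones. The troponin C ratio of Cre 3 had an interval of 10.9 to 14.2, against 1.43 to 2.82 in Loxp 4, the highest Loxp library. The troponin T ratio of Cre 1 had an interval of 0.144 to 0.410, which holds the value of Loxp 2, so these libraries were not distinguishable at this depth. For troponin I in Cre 1, where no Tnni1 read was found, the ratio could be up to 0.0793 by the limit of 3 reads, which is above the 0.0606 of Loxp 1.

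**Figure D2:**
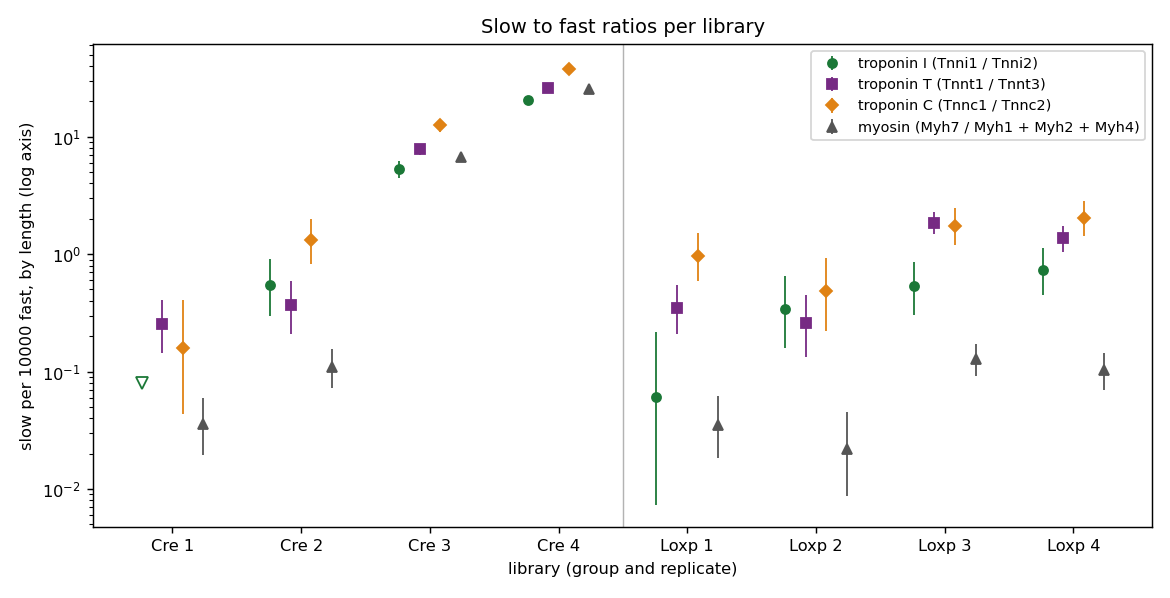
Slow transcripts per 10000 fast transcripts, by length, on a log axis, for troponin I, T and C and for the slow myosin heavy chain Myh7 over Myh1, Myh2 and Myh4, in the 4 Cre libraries (left) and the 4 Loxp libraries (right), with exact 95% counting intervals. The open triangle is the limit that 0 reads of Tnni1 allow in Cre 1; the troponin values run from 5.26 to 12.5 in Cre 3 and from 20.4 to 37.5 in Cre 4, above the highest Loxp value of 2.04.

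The mean troponin I ratio was 6.55 ± 9.52 per 10000 in Cre and 0.417 ± 0.286 in Loxp (SD, n = 4 each). The mean troponin T ratio was 8.65 ± 12.2 in Cre and 0.953 ± 0.775 in Loxp, and that of troponin C was 12.9 ± 17.3 in Cre and 1.31 ± 0.710 in Loxp. The difference of mean log2 ratios was 1.76 for troponin I, 1.59 for troponin T and 1.50 for troponin C. Exact two-sided permutation tests over all 70 relabellings gave p = 0.457 for troponin I, 0.400 for troponin T and 0.429 for troponin C, each 0.457 after Benjamini-Hochberg adjustment over the 3 ratios. The smallest p that 4 against 4 libraries can give is 0.0286. Without Cre 3 and Cre 4 the differences were -1.38, -1.15 and -1.18. These libraries had the highest ratios, so a lower difference was fixed in advance.

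Within the slow set, the subunits' proportions differed between libraries. Per length, Tnnc1 was 2.26, 2.13 and 1.69 times Tnni1 in Cre 2 to 4, against 14.4, 1.44, 2.88 and 2.59 times in Loxp 1 to 4. Tnnt1 was 1.27, 2.74 and 2.32 times Tnni1 in Cre 2 to 4, against 10.6, 1.48, 6.18 and 3.45 times in Loxp 1 to 4. Cre 1 has no such ratio, with Tnni1 at 0, and the values of Loxp 1, the highest of both series, rest on 2 reads of Tnni1. The slow forms were 0.00163%, 0.00645%, 0.0824% and 0.273% of all troponin transcripts in Cre 1 to 4, against 0.00422%, 0.00338%, 0.0146% and 0.0136% in Loxp 1 to 4, so the fast forms dominated in every library.

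None of the 8 troponin genes was called by limma, and none had an unadjusted p under 0.05. All 8 passed the filter of 10 normalized reads in at least 4 libraries, Tnni3 in exactly 4. Over all genes tested, 0.0147% were called, 2.91% had an unadjusted p under 0.05, and 1.92% had groups that did not overlap, as no troponin gene had. The 8 genes had a median log2 difference of 0.31, with 7 above 0 and 1 below, beside a median of 0.0049 over all genes tested, of which 7050 were above 0 and 6588 below. That median was 0.096 without Cre 2, 0.51 without Cre 3, 0.74 without Loxp 1, 0.12 without Loxp 3 (5 above and 3 below) and 0.091 without Loxp 4. Without both Cre 3 and Cre 4 it was 0.075, with 5 above and 3 below. The split was also 5 above and 3 below without Cre 1, and all 8 above with library weights. With quantile normalization 6 were above 0, and Tnnt3 was at 0, with no direction. Among those above 0 were Tnni2, Tnnt3 and Tnnc2, at 0.018 to 0.025, whose signs turned when 1 library was left out.

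**Figure D3:**
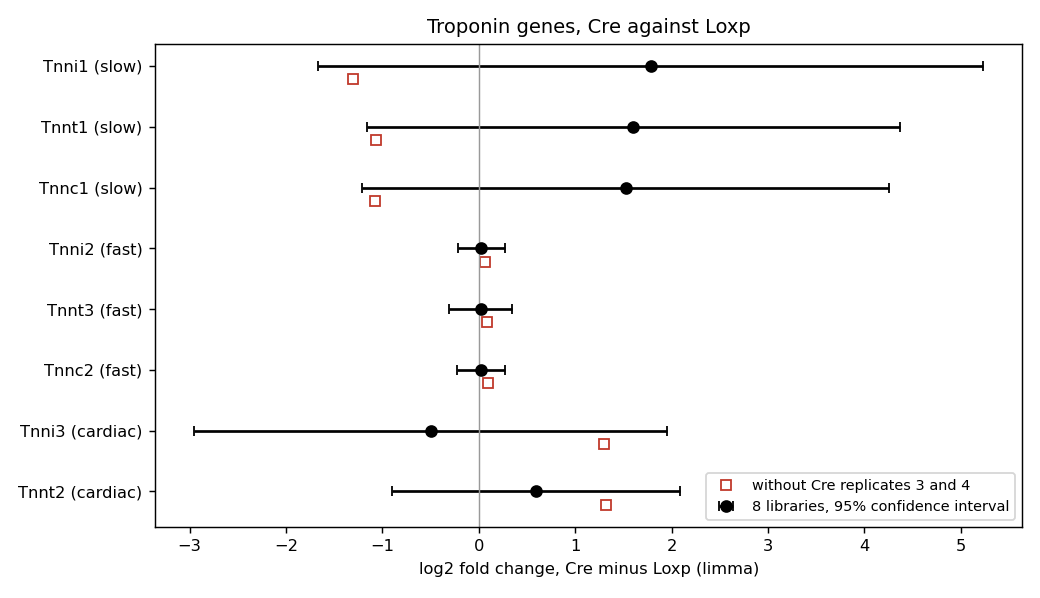
Cre minus Loxp log2 difference of each troponin gene by limma with its 95% confidence interval (filled circles, 8 libraries) and the same difference without Cre 3 and Cre 4 (open squares). The intervals of the slow and cardiac genes span 0 widely, those of the fast genes are narrow, and the slow genes lie between -1.31 and -1.07 without Cre 3 and Cre 4, against 1.52 to 1.78 with all libraries.

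The cardiac troponins were low and varied between libraries in another order than the slow ones. Tnni3, cardiac troponin I, had 26.1, 59.9, 1.14 and 4.25 normalized reads in Cre 1 to 4, against 84.5, 26.9, 3.82 and 5.41 in Loxp 1 to 4. Cre 1, Cre 2, Loxp 1 and Loxp 2 were high and the other 4 libraries low, with the groups overlapping, and the value of Cre 3 is that of 1 read. Tnnt2, cardiac troponin T, had 109, 229, 76.5 and 42.5 normalized reads in Cre 1 to 4, against 241, 86.2, 28.7 and 24.9 in Loxp 1 to 4. Loxp 1 and Cre 2 were highest for both genes, and the lowest were Cre 3 for Tnni3 and Loxp 4 for Tnnt2.

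The Cre minus Loxp difference was -0.50 for Tnni3 (limma, SE 1.12, 95% confidence interval -2.95 to 1.96, adjusted p = 1.00) and 0.60 for Tnnt2 (SE 0.68, -0.90 to 2.09, adjusted p = 1.00). The sign for Tnni3 turned when Cre 3 (0.32) or Loxp 1 (0.29) was left out. The Tnnt2 value was 1.24 without Loxp 1, 0.98 without Cre 4, 0.18 without Cre 2, 0.23 without Loxp 3 and 0.17 without Loxp 4. Both cardiac genes were well below the fast genes in every library, at 0.00264% to 0.0261% of troponin transcripts by length.

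Of the 8 listed heart muscle markers, Myh6 and Ryr2 were high in the same libraries as Tnni3, while Myl4 and Myzap differed little between libraries and the other 4 were near 0. The summed level of the 8 heart markers ran from 207 to 1589 normalized reads in Cre and from 235 to 1386 in Loxp, and was highest in Cre 2 and Loxp 1. Myh6, which encodes the alpha myosin of the heart, had 352, 1125, 95.9 and 154 normalized reads in Cre 1 to 4, against 1009, 498, 127 and 127 in Loxp 1 to 4. Ryr2, the calcium release channel of the heart, had 86.7, 315, 13.7 and 9.92 in Cre 1 to 4, against 282, 120, 22.0 and 4.33 in Loxp 1 to 4. The same 4 libraries were high for both genes as for Tnni3. The atrial light chain Myl7 was at 0 in all libraries except Cre 2, which had 4.89 normalized reads. The natriuretic peptide genes Nppa and Nppb did not exceed 7.04 and 1.01 normalized reads. The part of any heart tissue in these values was not tested. 4 of the 8 heart markers passed the filter, 3 of them above 0 and 1 below, and none was called. The split was 1 above and 3 below without Cre 2, and all 4 were above 0 without Cre 3, Cre 4 or Loxp 1.

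The genes of the slow fibre apparatus other than troponin followed the slow troponins in part. Among those that did not, Pln was highest in Cre 2 (221 normalized reads) and Loxp 1 (206), with 77.6 in Cre 3 and 70.8 in Cre 4. Csrp3 was highest in Loxp 4 (1261), above Cre 3 (360) and Cre 4 (591). Of 13 listed slow fibre partners, 12 were tested, 11 had a value above 0 and 1 below, with a median log2 difference of 0.55, and none was called. 1 of them, Myh7, had an unadjusted p under 0.05. Without Cre 3 and Cre 4 the split was 4 above and 8 below, with a median of -0.085. With library weights it was 9 above and 3 below. Leaving out 1 library gave a median of 0.21 without Loxp 2 (8 above and 4 below), 0.26 without Cre 4 and 0.84 without Cre 2. The median was 0.92 without Loxp 3, 0.89 without Loxp 4 and 1.00 without Cre 1. Without Cre 1, 6 partners had an unadjusted p under 0.05 (limma), beside 396 of all 13638 genes tested.

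Myh7, which encodes the beta myosin of slow fibres and heart ventricles, had 11.8, 35.5, 2133 and 7430 normalized reads in Cre 1 to 4, against 12.1, 7.83, 40.1 and 34.6 in Loxp 1 to 4. It was high in the same Cre 3 and Cre 4 libraries as the slow troponins, and the groups overlapped through Cre 1 and Cre 2. Its difference was 3.85 (limma, SE 1.69, unadjusted p = 0.0430, adjusted p = 1.00). Myh6 and Myh7 are close paralogs, and the counting could have split or dropped reads that match both. By length, Myh7 per 10000 fast myosin transcripts was 0.0359, 0.109, 6.74 and 25.6 in Cre 1 to 4, against 0.0354, 0.0219, 0.128 and 0.103 in Loxp 1 to 4. In Cre 3 and Cre 4 this ratio was of the size of the troponin ratios, and in the other 6 libraries it was lower than the troponin T and C ratios.

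Atp2a2, the slow and cardiac calcium pump SERCA2, had 1524, 1829, 2537 and 4972 normalized reads in Cre 1 to 4, against 1669, 1599, 1728 and 1575 in Loxp 1 to 4. Cre 3 and Cre 4 were the highest here too, over a level that did not fall below 1524 in any library. Tpm3, the gene of slow tropomyosin, had 466, 419, 925 and 1998 normalized reads in Cre 1 to 4, against 426, 449, 528 and 508 in Loxp 1 to 4. Ankrd2, a stretch-responsive protein gene of slow fibres, had 178, 394, 844 and 1385 in Cre 1 to 4, against 368, 40.3, 1137 and 1078 in Loxp 1 to 4. Unlike the troponins, Ankrd2 was as high in Loxp 3 and Loxp 4 as in Cre 3 and Cre 4.

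The myosin of oxidative fast fibres, Myh2, had 4409, 6512, 50678 and 51585 normalized reads in Cre 1 to 4, against 7832, 797, 73690 and 50366 in Loxp 1 to 4. Cre 3, Cre 4, Loxp 3 and Loxp 4 were high and the other 4 low, in both genotypes, which are the libraries that were low and high for Tnni3. The difference for Myh2 was 0.42 (limma, SE 1.30, 95% confidence interval -2.43 to 3.28, adjusted p = 1.00). Its sign turned without Cre 3 (-0.11), Cre 4 (-0.12) or Loxp 2 (-0.89) and with library weights (-0.37). It was 1.06 without Cre 1, 0.87 without Cre 2, 0.21 without Loxp 1, 1.28 without Loxp 3 and 1.10 without Loxp 4. The slow troponins were high in the same Cre libraries as Myh2, and within Loxp all 3 were also highest in Loxp 3 and Loxp 4, at levels below those of Cre 3 and Cre 4.

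**Figure D4:**
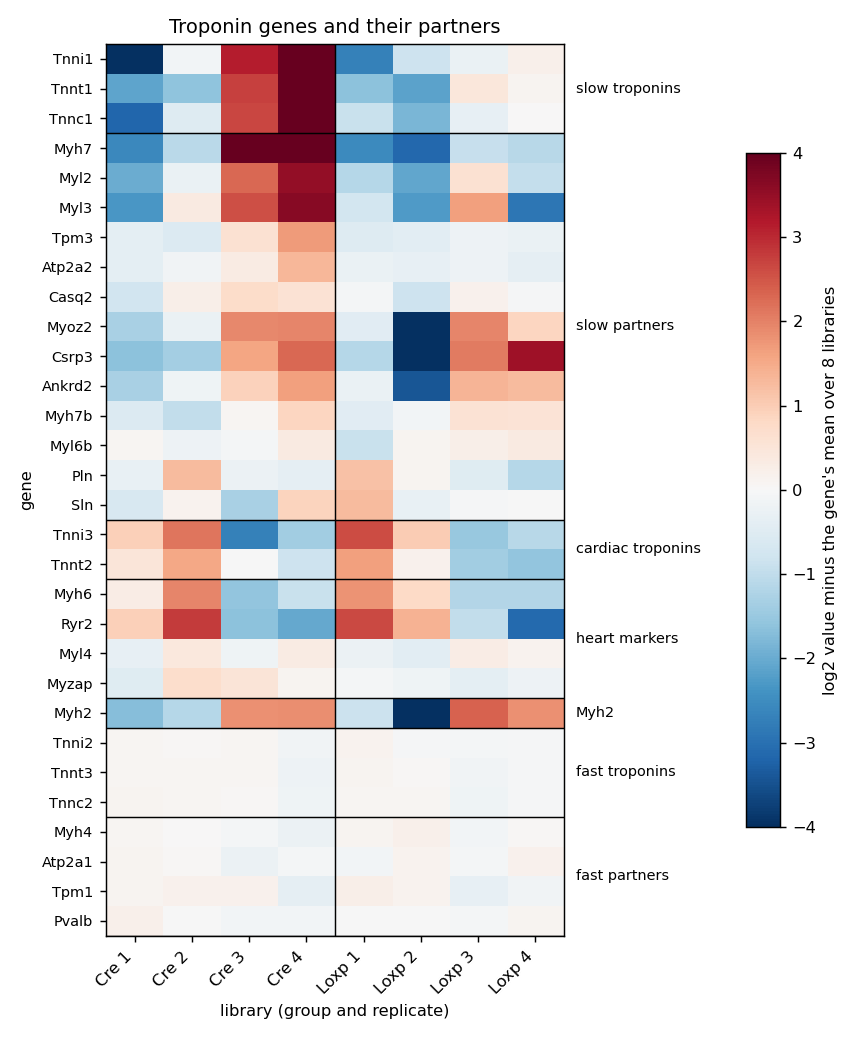
Deviation of each gene's log2 value from its own mean over the 8 libraries (colour, from -4 to 4 log2 units, larger deviations at the end colours), for the troponins, the slow fibre partners, the tested heart markers, Myh2 and the highest-expressed fast partners, in Cre (left) and Loxp (right). The slow troponins, Myh7 and Myl2 are high in Cre 3 and Cre 4, Tnni3, Myh6 and Ryr2 are high in Cre 1, Cre 2, Loxp 1 and Loxp 2, and the fast genes are close to 0 throughout.

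Apart from Myh1, the fast fibre partners moved little, with at most 1.50-fold between the lowest and highest library (Tpm1). Myh1, another fast myosin, differed 4.58-fold. It had 72600, 133482, 207621 and 224708 normalized reads in Cre 1 to 4, against 119090, 49067, 207420 and 173225 in Loxp 1 to 4. Myh1 was highest in Cre 3, Cre 4, Loxp 3 and Loxp 4, which were also high for Myh2. All 12 listed fast partners were tested, 5 had a value above 0 and 7 below, and the median was -0.0043. None was called or had an unadjusted p under 0.05. This split was 7 above and 5 below with library weights. It was 1 above and 11 below without Loxp 3 and 2 above and 10 below without Cre 1. Without Cre 4 it was 9 above and 3 below. With quantile normalization 7 were above 0, and the median of the glycolytic markers Myh4, Pvalb and Actn3 was -3.3e-15, with no direction. Myh4, the glycolytic fast myosin, averaged 2850620 ± 251907 normalized reads in Cre and 3085590 ± 274588 in Loxp (SD, n = 4 each). Atp2a1, the fast calcium pump SERCA1, averaged 680032 ± 68381 in Cre and 716796 ± 73236 in Loxp. Tpm1, which encodes alpha tropomyosin, averaged 570860 ± 91010 in Cre and 554412 ± 97870 in Loxp, and Pvalb, the calcium buffer parvalbumin, 272049 ± 29253 in Cre and 271363 ± 16088 in Loxp. All these pairs of means differed by less than 1 SD. The markers checked for glycolytic fast fibres (Myh4, Pvalb and Actn3) were abundant in all 8 libraries, with summed levels of 2998030 to 3703680 normalized reads in Cre and 3233590 to 3981930 in Loxp.

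The thin filament on which troponin sits was also uncalled. Of 12 thin filament genes, among them the actins, tropomyosins and nebulin, 7 had a value above 0 and 5 below, with a median of 0.056. Without Loxp 2, 5 were above 0 and 7 below, with a median of -0.0056, and without Cre 4, 10 were above and 2 below. Of 21 transcriptional and signalling regulators of fibre type, 11 were above 0 and 10 below, with a median of 0.018, none was called and none had an unadjusted p under 0.05. Leaving out 1 library gave splits between 9 above and 12 below (without Cre 1) and 14 above and 7 below (without Cre 3). The 4 with the smallest p were Prdm1, the gene of the repressor Blimp1, at -0.61 (limma, SE 0.30), Rcan1, a calcineurin inhibitor and target, at -0.19 (SE 0.11), Ppargc1a, the coactivator of mitochondrial genes, at 0.12 (SE 0.085), and Myog, the factor myogenin, at -0.27 (SE 0.19). Their adjusted p was 1.00. Ppargc1a had 1232, 1415, 1344 and 1498 normalized reads in Cre 1 to 4, against 1358, 1088, 1293 and 1304 in Loxp 1 to 4, with little spread beside that of the slow troponins.

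Markers of other cells were as follows. Of 9 markers of immature or denervated fibres, in which Tnnt2 is also used, 8 were tested, 2 above 0 and 6 below. Their summed level was 11380 to 16515 normalized reads in Cre and 10696 to 38156 in Loxp. The actin gene Actc1 made up most of this sum in every library, at 9797 to 15227 in Cre and 9267 to 36809 in Loxp. Gadd45a, the next highest of these markers, did not exceed 424 normalized reads. Without Loxp 4 the split was 5 above and 3 below. None was called, and Chrng, the fetal acetylcholine receptor subunit, did not exceed 5.03 normalized reads. All 8 adipocyte markers were below 0, with a median of -1.86 and 5 unadjusted p under 0.05, none called. That 5 was 0 without Cre 2 or Loxp 3, 1 without Loxp 2 (median -1.10), 2 without Cre 4, 3 without Cre 3 and 8 without Loxp 4 (median -2.69), with all 8 below 0 each time. Their summed level was 2785 to 3772 in Cre and 2847 to 21810 in Loxp, where Loxp 2 was highest. Of 6 smooth muscle markers, 1 was above 0 and 5 below, 1 with an unadjusted p under 0.05 (0 to 4 when 1 library was left out), and their sum was 3626 to 5556 in Cre and 4713 to 5477 in Loxp. All 5 slow fibre markers were above 0, summing to 1939 to 16397 in Cre and to 1991 to 3020 in Loxp, and none was called. Without Cre 3 and Cre 4, 3 were above 0 and 2 below. The part of these other cells in the troponin values was not tested.

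The genes whose pattern over the 8 libraries was nearest to the slow troponins were sought among the other 13630 tested genes. Likeness was the root mean square difference between a gene's deviations from its own log2 mean and the mean deviations of Tnni1, Tnnt1 and Tnnc1. The 3 troponins lay at 0.66, 0.56 and 0.36 from that mean, near it in part by construction, since they make it up. The nearest gene was Myl2, the slow and ventricular myosin light chain, at 0.78, then Myh7 at 1.34, Myl10 at 1.40 and Myl3, another slow and ventricular light chain, at 1.41. The next were 1190003K10Rik at 1.47, Fam89a at 1.55, BC048679 at 1.56, 5930412G12Rik at 1.61, Ldhb, the heart-type lactate dehydrogenase subunit, at 1.65 and Sox8 at 1.65. The median over all other genes was 2.34, close to the 2.33 of a flat profile, that of a gene with no variation. The largest deviations, those of Cre 3 and Cre 4, weigh most in this measure.

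Myl2 had 32.8, 110, 649 and 1535 normalized reads in Cre 1 to 4, against 59.3, 30.2, 202 and 68.2 in Loxp 1 to 4, and its difference was 1.79 (limma, SE 1.00, adjusted p = 1.00). Its order over the Cre libraries was that of the slow troponins. Ldhb had 571, 926, 3009 and 2723 in Cre 1 to 4, against 751, 289, 3776 and 2140 in Loxp 1 to 4, so that it was high in Loxp 3 and Loxp 4 as well. That is the pattern described for Myh2. Myl10 likewise had 85.6 and 73.7 normalized reads in Cre 3 and Cre 4, and 86.9 and 61.7 in Loxp 3 and Loxp 4. 1190003K10Rik, Fam89a, BC048679 and 5930412G12Rik were also higher in Loxp 3 and Loxp 4 than in Loxp 1, Loxp 2, Cre 1 and Cre 2. Sox8 was at 23.9 in Loxp 3 and 21.7 in Cre 3. Fam89a did not exceed 14.2 normalized reads, close to the filter of 10.

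The troponin genes lie in pairs of an I and a T gene along the genome. On GRCm38, with GENCODE M21 annotation, Tnni1 (chr1:135779434-135810989, plus strand) and Tnnt2 (chr1:135836354-135852260, plus strand) are 25.4 kb apart. Tnnt1 (chr7:4504570-4516382, minus strand) and Tnni3 (chr7:4518305-4524229, minus strand) are 1.92 kb apart, and Tnni2 (chr7:142441808-142444410, plus strand) and Tnnt3 (chr7:142498836-142516009, plus strand) are 54.4 kb apart. Tnnc1 (chr14:31208312-31211729, plus strand) and Tnnc2 (chr2:164777161-164779967, minus strand) stand apart from these.

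Neighbours on the chromosome did not have the same values. Tnni1 was highest in Cre 4, where the adjacent Tnnt2 had 42.5 normalized reads, below its level in the other 3 Cre libraries. Tnnt1 was likewise highest in Cre 4, where the adjacent Tnni3 had 4.25. The members of the fast pair on chromosome 7 were both near constant. None of the nearest tested genes on either side was called, and Ppp1r12c, beside the Tnnt1 pair, had the smallest unadjusted p at 0.0914 (limma, difference -0.18, SE 0.10).

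Overlapping genes bear on some of these values, since no source used here states whether the counting used strand. Ube2c, on the opposite strand, shares 592 bases, or 74.0%, of the exons of Tnnc2, and had 92.8 to 228 normalized reads against at least 168933 for Tnnc2. Tnnc1 lies within Nisch on the opposite strand but shares 0 exon bases with it. Nisch had 1738 to 2063 normalized reads, and the part of its intron reads in the low Tnnc1 values was not tested. Tnni3 shares 86 bases with Dnaaf3 on the same strand, which did not exceed 6.03 normalized reads. Stretches of 50 bases shared with another gene's transcripts were at most 1.69% of a troponin gene's stretches, in Tnni3.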

How the data were processed

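Per the labels, total RNA was purified with a Norgen Biotek kit and sequencing libraries were made with a TruSeq stranded kit. FastQC, cutadapt, STAR, HTSeq, DESeq2 and GRCm38 are named, with no role, in the submitters' processing notes; no source used here names the gene annotation. The deposited values are log2 values of normalized reads plus 1, found from the values themselves: with the log undone, 100% of values below 1000 reads lay within 0.1 of a whole multiple of 1 step per library, which gave the read counts. Counting intervals and limits of 3 reads cover counting error only.

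A floor of 10 normalized reads in 4 or more of the 8 libraries left 13638 genes, which were tested with limma 3.58.1 in R 4.3.3 (trend, no covariate), with Benjamini-Hochberg adjustment over all of them and a threshold of 0.05; the script was tested on simulated data. Ratios were tested with exact permutation in Python 3.11.15 with numpy 2.4.6, and counting intervals were computed with scipy 1.17.1. Lengths were median coding transcript lengths in GENCODE M21. Nothing says how animals were paired or batched, and p-values measure the spread between these libraries. The members and lists were chosen with earlier results of these data known. Named in the text are all troponin genes, Acot2, the 4 highest-expressed slow and fast partners, the 4 regulators of smallest p and the 10 genes most alike. Of the nearest neighbours, only Ppp1r12c, with the smallest unadjusted p, is named. Kbtbd12, Myh1, Myh2, Pln, Csrp3 and the heart and other-cell markers named were added, as were the values of Myl2, Ldhb and others of the 10 genes most alike. Alternatives changed the pseudocount, filter, scaling, test, block and libraries.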

Additional observations from a re-analysis of the deposited data

Results flagged for a closer look

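Tnnt3 in Cre replicate 4 had 481273 normalized reads, far below the other 3 Cre libraries, which lay between 578075 and 582661. The gap to the nearest library was 0.955 of the range of the Cre group, past Dixon's 95% limit for 4 samples. It was the only such sample among 26 groups of 4 examined, and chance gives about 1 in 20. Tnni2 and Tnnc2 were also lowest in that library, at 197363 and 168933 normalized reads.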

How the results depend on the processing

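Under all alternatives run, 2 genes and 0 troponin genes were called, and Acot2 stayed called, at -2.29 to -1.94. Without both Cre 3 and Cre 4 (chosen after the data were seen), the signs turned for the ratios of troponin I (-1.38, exact p = 0.533), T (-1.15, exact p = 0.333) and C (-1.18, exact p = 0.333). The smallest exact p possible there is 0.0667. Signs also turned for Tnni1 (-1.31), Tnnt1 (-1.07), Tnnc1 (-1.08) and Tnni3 (1.30), while Tnnc2 was at 0.0995. Cre 3 and Cre 4 were highest for the slow genes and the ratios, so a fall in these was fixed in advance. Leaving out each library in turn gave 0.390 to 3.505 for the troponin I ratio, 0.39 to 2.58 for T and 0.34 to 2.84 for C; 0.47 to 3.51 for Tnni1, 0.47 to 2.58 for Tnnt1, 0.43 to 2.83 for Tnnc1 and 0.17 to 1.24 for Tnnt2. It turned signs for Tnni2 (-0.0015 to 0.080), Tnnt3 (-0.024 to 0.085), Tnnc2 (-0.029 to 0.083) and Tnni3 (-1.29 to 0.32). Library weights gave 0.0021 for Tnni3, 0.80 for Tnni1, 0.78 for Tnnt1 and 0.63 for Tnnc1. The cause was not tested. Without Cre 1, 2 troponin genes had an unadjusted p under 0.05 (limma), the smaller 0.0067, and without Loxp 1, 1 had. Of all 13638 genes tested, 396 had one without Cre 1 and 433 without Loxp 1. Each Cre animal had a number next to that of a Loxp animal. A replicate block on these adjacent numbers gave 2 called genes and 513 unadjusted p under 0.05 (limma), against 397. Correlations of the adjacent pairs' deviations were -0.081, 0.15, 0.19 and -0.084, and those of the other Cre and Loxp pairs ran from -0.22 to 0.19. These values do not settle whether the numbers pair the animals. A pseudocount of 0 gave no troponin I ratio, with Cre 1 at 0, and a filter on a mean of 100 dropped Tnni1 and Tnni3. Quantile normalization put Tnnt3 at 0, with no direction; the others of the 223 remaining values kept their direction and side of the threshold. Low counts limit Tnni1 and Tnni3; a pseudocount of 10 gave -0.22 for Tnni3.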

Other observations

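The genes nearest in pattern to the cardiac troponins were sought in the same way, a choice made after their values were seen. Against the mean deviations of Tnni3 and Tnnt2, the nearest of the tested genes was Myh6 at 0.27. Mylk3, the myosin light chain kinase of the heart, was next at 0.72, then Gm19299 at 0.82. Pln, the SERCA regulator phospholamban and also a listed slow fibre partner, was at 0.82, and Hoxd10 at 0.83. Mhrt, a non-coding RNA of the Myh6 and Myh7 locus, followed at 0.83, and Ryr2 was at rank 9 with 0.87. Tnni3 and Tnnt2, whose mean is the profile, lay equally far from it by construction, at 0.56. The median over other genes was 1.42. The heart markers Myl4 and Myzap ranked 11243 and 4622 by the same measure. Mylk3 had 10.1, 24.5, 1.14 and 4.25 normalized reads in Cre 1 to 4, against 16.1, 13.4, 6.69 and 1.08 in Loxp 1 to 4. Hoxd10, a homeobox gene of the limb, had 12.6, 31.8, 14.8 and 5.67 in Cre 1 to 4, against 39.2, 11.2, 8.60 and 7.58 in Loxp 1 to 4. Myh2 ranked 13627 by this measure, near the end of the list.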
